A study of Mus musculus with 17 samples.

Results

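Human wild-type FLT3 was introduced into 32D cells, a mouse myeloblast-like line that depends on interleukin 3 (IL-3), and gene expression was compared with that of 32D cells carrying the same pLXRN retroviral vector without an insert. The comparison used the 2 arrays labelled wt FLT3 without ligand and the 2 arrays labelled empty pLXRN vector, 4 of the 17 arrays of the series. Both groups were made by retroviral transduction, selected with G418 as populations of many clones and grown with 1 ng/mL mouse IL-3 in medium with 10% serum. They therefore shared the vector backbone, the selection and the cytokine, and the introduced receptor was the intended difference between them.

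FLT3 belongs to the receptor tyrosine kinases and is found on early haematopoietic and dendritic cell progenitors, and its ligand makes the receptor dimerise and signal through the RAS-ERK, PI3K and STAT5 pathways. Internal tandem duplications (ITD) of its juxtamembrane region, common in acute myeloid leukaemia, make it active without ligand. IL-3, on which 32D cells live, signals through a receptor of its own that also uses JAK2-STAT5 and RAS-ERK.

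The other arrays serve here as reference levels. They were 2 of parental 32D cells with the same IL-3, 2 of the wild-type FLT3 cells given 20 ng/mL FLT3 ligand, and 9 of cells with different FLT3/ITD mutants, which grew without IL-3. Whether the ligand-treated cultures also kept IL-3 is not spelled out in the growth protocol. Titles call the 2 arrays of each control group biological replicates, while the series design counts 2 lines in each. Whether these were separately transduced lines or cultures of 1 line is not settled by the sources used here, so the spread within a pair may be only that between cultures and may be technical. With 1 or 2 transduced populations on each side, the receptor and the history of the populations cannot be told apart.

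All values are log2 signals on Affymetrix mouse exon arrays, and a difference of 1 is a 2-fold change. Each gene was represented by the average of its used probe sets, and 20227 genes were tested. Across all genes, which are not independent replicates, the profiles correlated at 0.983 within the vector pair, 0.985 within the wild-type pair and 0.964 to 0.966 between them. The cells carried transcripts found in myeloblasts: 12 of the 13 markers fixed for that type were measured, with group means from 9.00 to 12.90. Elane is not listed under that symbol. Eosinophils, mast cells and basophils were not among the types compared, so these markers do not set myeloblasts apart from them. Lymphoid markers (5 of 6 measured, group means 4.60 to 6.22) and fibroblast, endothelial and epithelial markers (8 of 8, group means 5.49 to 6.90) were near the low end of the scale and none was called between the groups. Of the 12 myeloblast markers 6 were lower with wild-type FLT3, as described below for Prtn3, Prss57, Myb, Cebpa, Spi1 and Csf2rb2. In RNA from whole cultures, fewer cells of a kind and less RNA per cell cannot be told apart.

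Flt3, the gene of the introduced receptor, was higher with wild-type FLT3. Its value was 5.15 and 5.24 on the vector arrays and 6.73 and 6.79 on the wild-type arrays, a difference of 1.57 ± 0.11 (SE, n = 2 against 2, limma adjusted p 1.16e-06). The groups were far apart, and the parental arrays (5.37 and 5.12) matched the vector level. Ligand-treated arrays stood at 6.89 and 6.88, and the 9 ITD arrays lay between 7.08 and 7.32 with a median of 7.12. The difference was 0.66 (adjusted p 0.0299) with the median over probe sets and 1.13 with no filter on dim probe sets. The array was designed for mouse genes and the transgene was human, and which probe sets match the human sequence was not examined here. Of 19 used Flt3 probe sets, 7 were higher on both wild-type arrays than on both vector arrays and 4 were lower on both, where 32.1% and 23.9% of all used probe sets did the same. The highest of these differences was 8.72 for 1 probe set that measured 3.03 and 3.56 on the vector arrays. These values lie below 4.599, the level that a probe set's mean over the 17 arrays had to exceed. The probe set passed through the arrays with a FLT3 receptor. The probe sets with differences of 5.73, 5.07 and 2.66 also had vector means below that level (3.39, 3.15 and 3.62) and passed likewise. The probe set with a difference of 6.68 had a vector mean of 5.22. The size and p-value of the Flt3 rise therefore rest in part on probe sets that passed through the groups where they are high.

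Against this background, limma called 1662 genes, or 8.22% of those tested, with a threshold of 0.05 on the p-value after Benjamini-Hochberg adjustment. Of these 1113 (5.5% of all genes) were higher and 549 (2.71%) were lower with wild-type FLT3. The share of calls that were higher, 67.0%, depended on the scaling: after quantile normalisation of the gene values again, 860 were higher and 816 lower, a share of 51.3%. Changes of at least 2-fold were called for 328 genes (1.62%), 148 higher (0.732% of genes) and 180 lower (0.89%). The median called difference was 0.65 among the higher genes and -0.80 among the lower, so rises were more numerous and falls were deeper, as the plot of difference against level shows. The groups did not overlap for any of the 1662 called genes, but 33.3% of all genes had both wild-type arrays above both vector arrays and 24.6% had both below. Fewer genes were called when 1 of the 4 arrays was left out: 516 without vector array 1, 503 without vector array 2, 456 without wild-type array 1 and 599 without wild-type array 2, and 348 (206 higher, 142 lower) were called in each of these fits. Calls that were lost in such a fit are given with their adjusted p. The count of each list is to be read against the 5.5% of all genes that rose and the 2.71% that fell. Lists and members were chosen with earlier results of these data known, so these shares describe the lists and are no independent support.

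**Figure D1:**
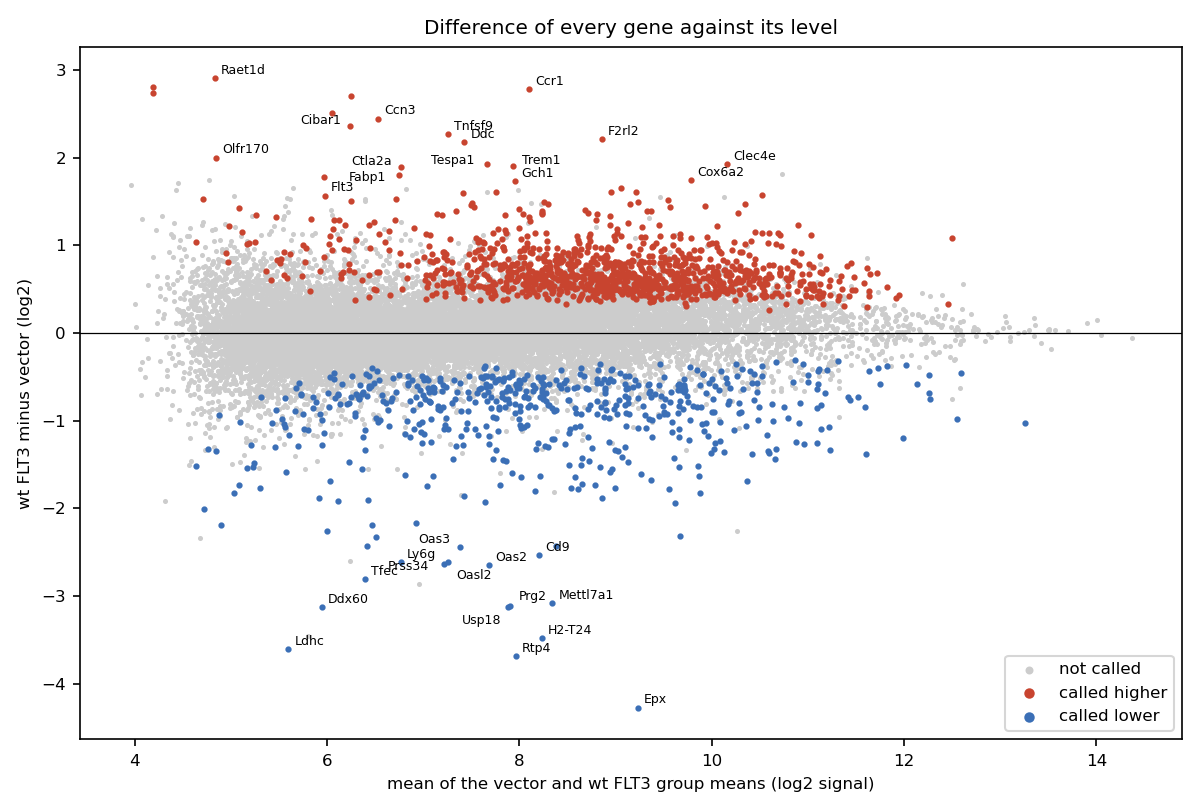
Difference between the means of the 2 wild-type FLT3 arrays and the 2 vector arrays (log2) against the mean of both group means (log2 signal), with 1 point for each of the 20227 genes; red and blue points are genes called higher (1113) and lower (549). Names mark Flt3 and the 15 largest rises and falls; unnamed red points at the top are predicted gene models. The deepest fall is Epx at -4.27, and no rise exceeds 2.90.

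Of 15 measured genes that MAP kinase (ERK) signalling induces, many of them feedback inhibitors of that pathway, 5 rose with wild-type FLT3 and none fell, where 5.5% of all genes rose and 2.71% fell. The other 10 were not called, 6 of the 15 differences were below 0, and the median was 0.28, against 0.024 over all genes. Dusp6, whose product dephosphorylates ERK, measured 8.81 and 8.90 on the vector arrays and 10.29 and 10.28 on the wild-type arrays, a rise of 1.43 ± 0.20 (adjusted p 0.00044). Parental cells (8.70 and 8.73) were as low as vector cells, and the ligand arrays (10.38 and 10.37) and the ITD arrays (9.72 to 10.41, median 10.16) were near the wild-type arrays. Etv5, an ETS transcription factor gene downstream of ERK, was 5.88 and 6.03 with the vector and 7.56 and 7.39 with wild-type FLT3, a rise of 1.52 ± 0.18 (adjusted p 0.000174). With ligand it stood at 7.02 and 7.08, below the untreated arrays and above the vector arrays, and it ran from 7.18 to 7.75 on the ITD arrays (median 7.31). The Spred genes encode membrane proteins that restrain RAS signalling. Spred2 went from 7.09 and 6.92 to 8.13 and 8.04, by 1.08 ± 0.16 (adjusted p 0.0007), and Spred1 from 7.53 and 7.71 to 8.52 and 8.45, by 0.87 ± 0.13 (adjusted p 0.000963). Spry2, a Sprouty inhibitor of receptor signalling, rose by 0.55 ± 0.14 (adjusted p 0.0237), from 7.47 on both vector arrays to a wild-type mean of 8.02, and here the parental arrays (8.24 and 7.92) were at the wild-type level. Among the members that were not called, Dusp4 differed by 0.93 ± 0.33 (adjusted p 0.102), Ier3 by 0.82 ± 0.26 (adjusted p 0.0619) and Spry4 by -0.31 ± 0.26 (adjusted p 0.565). With any 1 array left out Dusp6, Etv5, Spred1 and Spred2 were still called and Spry2 was not (adjusted p 0.12 to 0.136).

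Immediate early genes, the first transcripts to follow growth factor signals, were called in 2 of 18 cases, both rises, with a list median of 0.18. Egr2, a zinc finger factor of myeloid differentiation, was 5.60 and 5.37 with the vector and 6.95 and 6.59 with wild-type FLT3, a rise of 1.29 ± 0.32 (adjusted p 0.0196). Ier2 rose by 0.71 ± 0.19 (adjusted p 0.0281), from 9.63 and 9.75 to 10.43 and 10.37. Both calls were lost whichever of the 4 arrays was left out, with adjusted p from 0.0586 to 0.18 for Egr2 and from 0.109 to 0.175 for Ier2, and Ier2 is also a gene of the handling stress list. Egr1, the best known member, was 6.19 and 6.20 with the vector and 6.38 and 6.71 with wild-type FLT3, a difference of 0.35 ± 0.20 that was not called (adjusted p 0.34). Of 15 handling stress genes, which respond to how cells are harvested, 2 rose, Ier2 and Dusp1 (0.88 ± 0.25, adjusted p 0.0341, and 0.129 to 0.193 with an array left out); their part in the immediate early result was not tested.

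No STAT5 target was called by limma among 16 measured, 4 of which had an unadjusted p under 0.05, and the median difference was 0.10. Bcl6, a repressor that STAT5 itself represses, had the largest difference, from 8.39 and 8.43 on the vector arrays to 7.54 and 7.34, or -0.97 ± 0.37 (adjusted p 0.123). The feedback inhibitor Cish differed by 0.35 ± 0.32 (adjusted p 0.611), Socs2 by 0.23 ± 0.17 (adjusted p 0.505) and the kinase gene Pim1 by 0.13 ± 0.13 (adjusted p 0.658). IL-3, which also acts through STAT5, was present in both groups.

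Adaptors and phosphatases that dampen kinase signalling went both ways, with 2 of 19 higher and 3 lower. Grap, an adaptor related to GRB2, was 6.64 and 6.59 with the vector and 8.19 and 8.23 with wild-type FLT3, a rise of 1.60 ± 0.25 (adjusted p 0.00097). Sla2, the SLAP2 adaptor that directs receptors to degradation, rose by 1.66 ± 0.36 (adjusted p 0.00872), from 8.27 and 8.19 to 9.86 and 9.91. Dok3 fell by 0.91 ± 0.24 (adjusted p 0.0276), the receptor phosphatase gene Ptprj fell by 0.63 ± 0.15 (adjusted p 0.0133), and Inpp5d, the SHIP1 phosphatase, fell by 0.50 ± 0.13 (adjusted p 0.0279). Grap kept its call with any 1 array left out, while Sla2 (adjusted p 0.0612 to 0.0743), Dok3 (0.105 to 0.176), Ptprj (0.0677 to 0.113) and Inpp5d (0.0758 to 0.218) lost theirs in each such fit.

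Among 20 cytokine receptor genes Flt3 itself was the single rise and 4 fell. Csf2rb2 encodes the beta chain that pairs with the mouse IL-3 receptor alone. It measured 10.70 and 10.68 on the vector arrays and 9.20 and 8.91 on the wild-type arrays, a 3.1-fold fall of -1.63 ± 0.30 (adjusted p 0.00297), and it was called with any 1 array left out. The parental level was higher than both, at 11.88 and 11.71, and the ITD arrays ran from 9.39 to 10.87 with a median of 10.20. Csf2rb, the beta chain shared by the IL-3, GM-CSF and IL-5 receptors, was not called at -0.98 ± 0.38 (adjusted p 0.132), and neither was the alpha chain gene Il3ra at -0.17 ± 0.18 (adjusted p 0.676). The 2 beta chain genes are close copies that probe sets could confuse. Epor, the erythropoietin receptor gene, fell by 0.89 ± 0.23 (adjusted p 0.0241, and 0.081 to 0.181 with an array left out). Csf1r, the M-CSF receptor gene, fell by 0.60 ± 0.12 (adjusted p 0.0054, but 0.0666 without vector array 2 and 0.0737 without wild-type array 1), and Tnfrsf1a, a TNF receptor gene, fell by 0.58 ± 0.17 (adjusted p 0.0415, and 0.151 to 0.215 with an array left out).

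**Figure D2:**
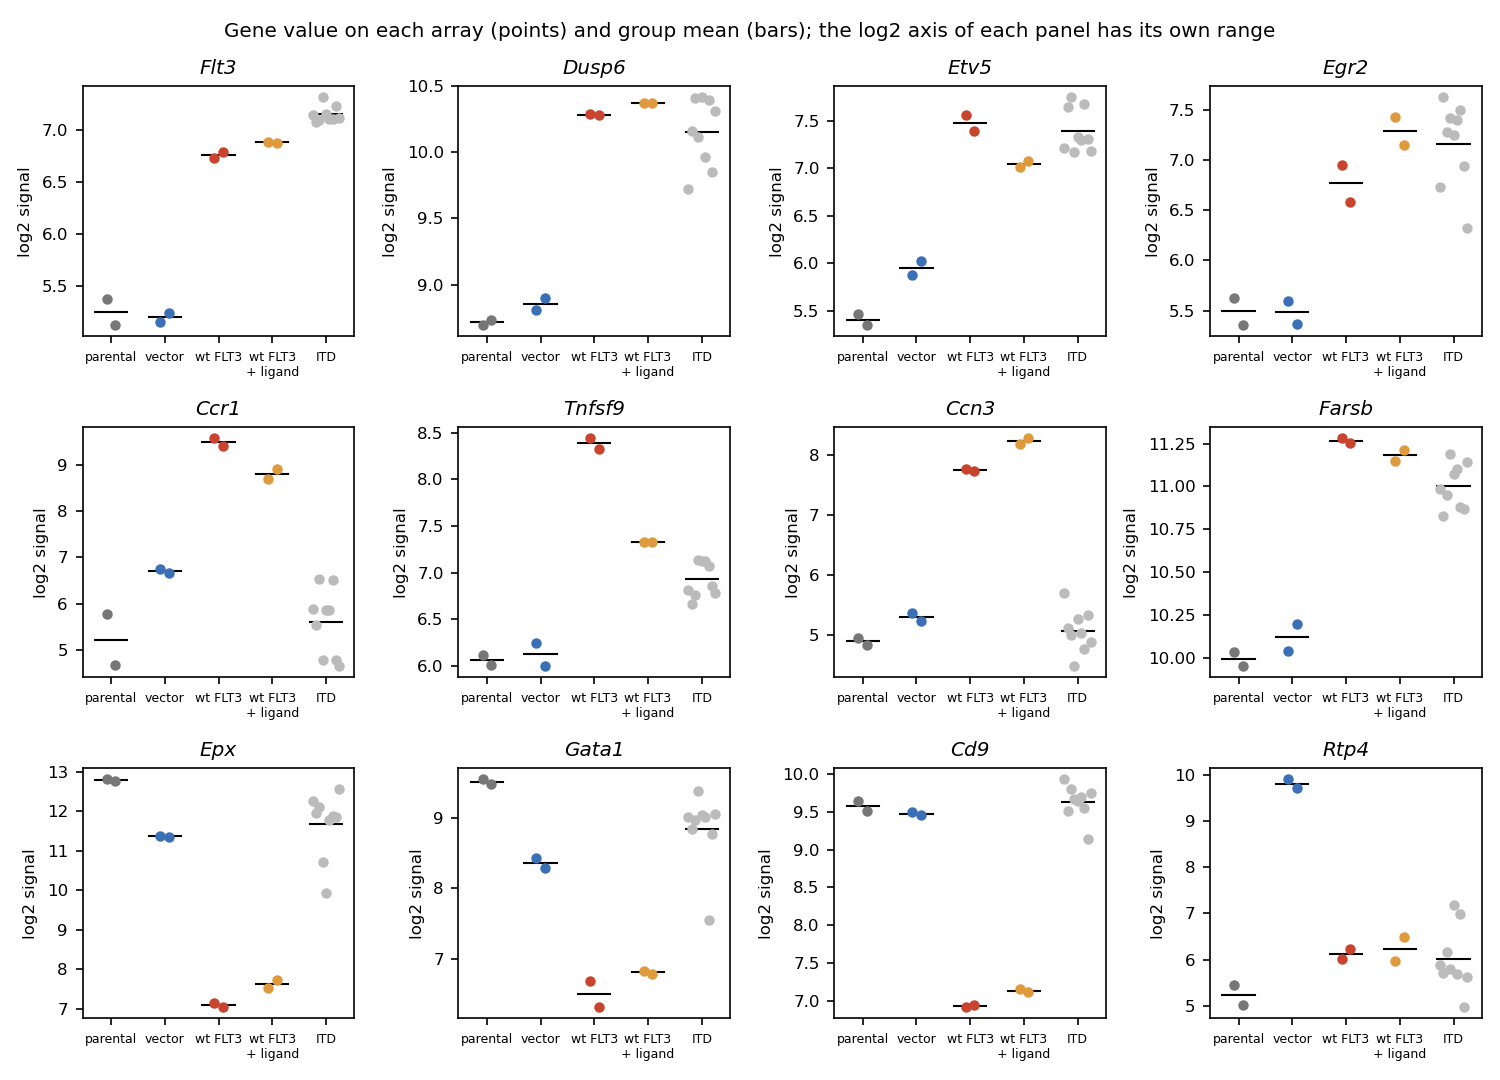
Log2 signal of 12 genes on each of the 17 arrays (points) with group means (bars), for parental, vector, wild-type FLT3, wild-type FLT3 with ligand and ITD cells; each panel has its own axis. Flt3, Dusp6, Etv5 and Egr2 are high in all 3 groups with a FLT3 receptor, Ccr1 and Ccn3 in the wild-type line alone with and without ligand, and Rtp4 on the 2 vector arrays; Epx, Gata1 and Cd9 are low in the wild-type line with and without ligand.

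The 15 largest rises included genes of surface receptors, secreted factors and enzymes, and none of these groups was tested as such. Ccr1, a receptor for inflammatory chemokines, measured 6.74 and 6.67 on the vector arrays and 9.57 and 9.41 on the wild-type arrays, a 6.9-fold rise of 2.78 ± 0.55 (adjusted p 0.00476, but 0.0549 without wild-type array 1). The ligand arrays were also high, at 8.69 and 8.92, whereas the ITD arrays (4.65 to 6.54, median 5.85) and the parental arrays (5.78 and 4.67) lay below the vector arrays. Ccn3, a secreted matricellular protein gene, measured 5.37 and 5.24 with the vector, 7.76 and 7.74 with wild-type FLT3, 8.18 and 8.28 with ligand, and 4.49 to 5.70 (median 5.03) with ITD, so here the ligand arrays were the highest and the ITD arrays spanned the vector values. Its rise of 2.44 ± 0.27 (adjusted p 9.12e-05) was called with any 1 array left out. Tnfsf9, which encodes the 4-1BB ligand, rose by 2.26 ± 0.16 (adjusted p 1.16e-06) from a vector mean of 6.12 to 8.44 and 8.33, and stood at 7.33 on both ligand arrays. F2rl2, a thrombin receptor gene, rose from 7.68 and 7.83 to 9.95 and 9.97, by 2.21 ± 0.41 (adjusted p 0.00312), and the ITD arrays ran from 8.63 to 10.64 with a median of 9.93. On all 15 named rises both wild-type arrays also lay above both parental arrays, as they did for 35.5% of all genes. These 15 genes were picked for being high on the same wild-type arrays, so this count and the next are in part built in. Against parental cells, a comparison that shares the wild-type arrays, 11 of the 15 were called higher, where 9.05% of all genes were, and Raet1d (adjusted p 0.233), Cibar1 (0.117), Olfr170 (0.235) and Ctla2a (0.421) were not. Of the 15 rises 11 had every used probe set higher on both wild-type arrays, where 32.1% of all used probe sets were. Among the 11 were Raet1d, Olfr170 and Fabp1 with 1 probe set each. Gene values are averages of these probe sets, so this count is in part built in as well.

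Further large rises were those of the aromatic amino acid decarboxylase gene Ddc (6.35 and 6.34 to 8.46 and 8.58, a rise of 2.17 ± 0.45, adjusted p 0.0068), the tetrahydrobiopterin synthesis gene Gch1 (7.06 and 7.13 to 8.87 and 8.79, 1.74 ± 0.40, adjusted p 0.0132) and the cytochrome oxidase subunit gene Cox6a2 (8.91 and 8.92 to 10.67 and 10.65, 1.74 ± 0.41, adjusted p 0.0146). The product of Ddc makes dopamine and serotonin, and that of Gch1 starts synthesis of the cofactor used by the hydroxylases that act before it. Clec4e, the Mincle lectin receptor of macrophages and neutrophils, rose by 1.93 ± 0.50 (adjusted p 0.0245) from 9.19 and 9.20 to 11.19 and 11.05. Trem1, which amplifies inflammatory signals in neutrophils and monocytes, rose by 1.90 ± 0.41 (adjusted p 0.00817) from 6.93 and 7.05 to 8.92 and 8.86, while the ITD arrays stood below the vector arrays (4.40 to 6.27, median 5.74). Cibar1 rose by 2.36 ± 0.54 (adjusted p 0.0124), Tespa1, known from T cell receptor signalling, by 1.93 ± 0.56 (adjusted p 0.0415) and the cysteine protease inhibitor gene Ctla2a by 1.89 ± 0.54 (adjusted p 0.0394). All 8 of these genes lost their call whichever of the 4 arrays was left out, with adjusted p from 0.0536 for Ddc to 0.219 for Tespa1. Raet1d (2.90 ± 0.60), Olfr170 (2.00 ± 0.46) and Fabp1 (1.80 ± 0.42) each rested on 1 probe set. The vector values of Raet1d (3.28 and 3.48) lie below the level of 4.599 and those of Olfr170 (2.92 and 4.77) on either side of it, so the size of these rises rests on signals near background. With no filter on dim probe sets the differences were 1.42 for Raet1d (adjusted p 0.0307), 0.49 for Olfr170 (adjusted p 0.426) and 0.23 for Fabp1 (adjusted p 0.587). Among the 8 genes above they shrank to 1.249 for Cibar1, 1.241 for Ddc and 1.331 for Ctla2a, whose call was lost (limma adjusted p 0.137). Those of Clec4e (1.927), Trem1 (1.925), Cox6a2 (1.744), Gch1 (1.735) and Tespa1 (1.851) changed little. Raet1d had an adjusted p of 0.0067 but up to 0.0627 with an array left out, Olfr170 0.0127 but up to 0.195, and Fabp1 0.0129 but up to 0.154.

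The deepest fall was that of an eosinophil granule gene. Epx, which encodes eosinophil peroxidase, measured 11.38 and 11.36 on the vector arrays and 7.14 and 7.05 on the wild-type arrays, a 19.3-fold fall of -4.27 ± 0.58 (adjusted p 0.000425). Parental cells (12.81 and 12.75) and ITD cells (9.94 to 12.56, median 11.88) were high as well, so the wild-type line, with ligand at 7.53 and 7.74 or without, was the low one. All 16 used Epx probe sets were lower on both wild-type arrays, and the call held with any 1 array left out. Prg2, the major basic protein gene, fell by 3.11 ± 0.84 (adjusted p 0.0296) from 9.37 and 9.56 to 6.43 and 6.27, but its adjusted p was 0.131 to 0.162 with an array left out. The parental level of Prg2 was 12.32 and 12.30, so the vector line was itself well below parental cells. These were 2 of 9 measured eosinophil genes, where 2.71% of all genes fell, and 7 were not called, among them Prg3 at -1.54 ± 0.76 (adjusted p 0.263) and the IL-5 receptor gene Il5ra at -0.26 ± 0.37 (adjusted p 0.773).

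Mast cell and basophil genes fell in 5 of 22 cases and rose in none, where 2.71% of all genes fell, with a median of -0.37. Cd9, a tetraspanin of mast cells and many other cells, was 9.49 and 9.45 with the vector and 6.92 and 6.95 with wild-type FLT3, a fall of 2.54 ± 0.18 (adjusted p 1.16e-06). The parental arrays (9.64 and 9.50) and the ITD arrays (9.14 to 9.92, median 9.66) sat at the vector level, and no other array without the wild-type receptor was as low. Cpa3, the mast cell carboxypeptidase gene, went from 9.63 and 9.55 to 7.32 and 7.01, a fall of 2.43 ± 0.32 (adjusted p 0.000353), and both genes were called with any 1 array left out. Prss34, a basophil protease gene, fell by 2.63 ± 0.54 (adjusted p 0.00632) from 8.64 and 8.43 to 5.88 and 5.93, with adjusted p 0.0635 without vector array 1 and 0.0597 without wild-type array 1. Here too the vector line was not at the parental level of 12.85 and 12.69. Slc18a2, the vesicular monoamine transporter gene, fell by 0.58 ± 0.15 (adjusted p 0.0271, and 0.124 to 0.15 with an array left out) and Srgn, the serglycin core protein gene, fell by 0.43 (adjusted p 0.0091, and 0.0589 to 0.09 with an array left out). Fcer1a, the IgE receptor alpha chain gene, was lower on both wild-type arrays (9.18 and 9.08 against 11.42 and 11.37) but not called at -2.26 ± 1.11 (adjusted p 0.255); its ITD arrays, which share the fitted spread, ran from 7.31 to 11.97.

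Transcription factors of myeloid lineages fell more often than they rose, 10 of 31 against 1, where 2.71% of all genes fell, and their median was -0.41. Gata1 and Gata2 encode zinc finger factors of the erythroid, mast cell and eosinophil lineages and of progenitors. Gata2 measured 9.71 and 9.68 on the vector arrays and 8.32 and 8.38 on the wild-type arrays, a fall of 1.35 ± 0.18 (adjusted p 0.000434). Gata1 went from 8.43 and 8.28 to 6.68 and 6.32, a 3.6-fold fall of -1.86 ± 0.37 (adjusted p 0.00565, but 0.059 without vector array 1 and 0.0646 without wild-type array 2). Both ligand arrays of Gata1 were low too (6.83 and 6.79), and parental cells (9.55 and 9.48) and ITD cells (7.55 to 9.38, median 9.01) were higher. Myb, which sustains progenitor growth, stood at 11.31 and 11.33 on the vector arrays, as on the parental arrays, and at 10.08 and 9.94 with wild-type FLT3, a fall of 1.32 ± 0.20 (adjusted p 0.00097). Ikzf2, the Helios factor gene, fell by 1.33 ± 0.18 (adjusted p 0.00046) from 10.67 and 10.70 to 9.35 and 9.38. Runx1 fell by 0.98 ± 0.27 (adjusted p 0.0354), Cebpa by 0.83 ± 0.16 (adjusted p 0.00434), Fli1 by 0.58 ± 0.13 (adjusted p 0.0102), Lmo4 by 0.57 (adjusted p 0.0179) and Spi1, which encodes PU.1, by 0.52 ± 0.14 (adjusted p 0.0231). Runx2 was the single rise, by 0.45 (adjusted p 0.0252). With 1 array left out 4 or 5 members were called lower and none higher, and 3 were called in every such fit. Cebpa lost its call without wild-type array 1 (adjusted p 0.063) and Fli1 in 3 of the fits (up to 0.103), and Runx1 (0.0949 to 0.23), Lmo4 (0.0912 to 0.129), Spi1 (0.075 to 0.191) and Runx2 (0.0869 to 0.192) in all 4.

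Erythroid and megakaryocyte genes fell in 4 of 19 cases: besides Gata1 and Epor these were Gp9, a platelet glycoprotein gene (-1.62 ± 0.45, adjusted p 0.0353), and Klf1, an erythroid factor gene (-1.29 ± 0.36, adjusted p 0.0336). Gp9 measured 7.69 and 7.55 with the vector and 5.99 and 6.01 with wild-type FLT3, and Klf1 6.54 and 6.15 against 5.11 and 5.00. The groups did not overlap, but both calls were lost whichever array was left out, with adjusted p from 0.143 to 0.177 for Gp9 and from 0.0922 to 0.229 for Klf1. No member of the list was called in every fit with an array left out. Neither the megakaryocyte integrin gene Itga2b (-0.63 ± 0.24, adjusted p 0.127) nor the repressor gene Gfi1b (-0.84 ± 0.32, adjusted p 0.125) was called. Of 19 Hox and progenitor factor genes none was called by limma, and 3 had an unadjusted p under 0.05. Mycn had the largest difference, 0.85 ± 0.34 (adjusted p 0.15), and Hoxa9 differed by -0.54 ± 0.19 (adjusted p 0.103).

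Granule genes of neutrophils and their precursors gave no single direction. Of 10 genes on the primary granule list, not all of which encode granule proteins, 3 fell and 1 rose. Prss57 went from 11.26 and 11.25 to 9.88 and 9.94, a fall of 1.34 ± 0.28 (adjusted p 0.0071). Prtn3, the proteinase 3 gene, fell by 1.19 ± 0.30 (adjusted p 0.022) and Calr, the calreticulin gene, by 0.76 ± 0.15 (adjusted p 0.00414), while the elastase inhibitor gene Serpinb1a rose by 0.88 ± 0.23 (adjusted p 0.0274). Mpo, the myeloperoxidase gene, was 11.48 and 11.40 with the vector and 11.53 and 11.43 with wild-type FLT3, a difference of 0.04 ± 0.34 (adjusted p 0.969). With an array left out Calr was still called, Prtn3 (adjusted p 0.108 to 0.131) and Serpinb1a (0.119 to 0.161) were not, and Prss57 was called only without wild-type array 2 (0.0492, otherwise 0.0577 to 0.0679).

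Late granule and mature neutrophil genes rose in 3 and fell in 4 of 26 cases. Ly6g, the surface marker of mouse neutrophils, went from 8.16 and 7.98 to 5.43 and 5.50, a difference of -2.61 ± 0.46 (adjusted p 0.00239) that rested on 2 probe sets and held with any 1 array left out. Chil1, a chitinase-like gene, fell by 1.53 ± 0.29 (adjusted p 0.00344, but 0.0505 without wild-type array 2), the haptoglobin gene Hp by 1.37 ± 0.40 (adjusted p 0.0445, and 0.173 to 0.196 with an array left out) and the gelatinase gene Mmp9 by 0.66 ± 0.15 (adjusted p 0.0133). Besides Trem1, Itgb2l rose by 0.92 ± 0.28 (adjusted p 0.0499) and Cd177 by 0.49 ± 0.14 (adjusted p 0.0468). With an array left out Mmp9 (adjusted p 0.0603 to 0.126), Itgb2l (0.174 to 0.222), Cd177 (0.109 to 0.286) and Trem1 (0.056 to 0.0732) were not called. The calprotectin genes S100a8 (0.22 ± 0.51, adjusted p 0.875) and S100a9 (0.56 ± 0.45, adjusted p 0.549) and the lactoferrin gene Ltf (-0.09 ± 0.61, adjusted p 0.962) were not called.

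Among 25 monocyte and macrophage genes 1 rose and 2 fell. Fcgr1, the high-affinity IgG receptor gene, was 9.72 and 9.75 with the vector and 11.33 and 11.28 with wild-type FLT3, a rise of 1.57 ± 0.42 (adjusted p 0.03, and 0.128 to 0.164 with an array left out). Mpeg1, the perforin-2 gene of phagocytes, went the other way, from 7.95 and 8.06 to 6.22 and 5.47, a fall of 2.16 ± 0.36 (adjusted p 0.00173) that held with any 1 array left out. Csf1r was the other fall. Of 18 stefin, cystatin and cathepsin genes 1 rose and 2 fell: Ctsc, the dipeptidyl peptidase gene that activates granule proteases, rose by 0.74 ± 0.20 (adjusted p 0.0274), and Ctse and Cst3 fell by 1.05 ± 0.25 (adjusted p 0.0156) and 0.56 ± 0.17 (adjusted p 0.0469). None of these calls held with an array left out (adjusted p 0.0905 to 0.223). The stefin genes Cstdc4 (1.55 ± 0.79, adjusted p 0.281) and Csta3 (1.48 ± 0.51, adjusted p 0.0899) were higher on both wild-type arrays but not called, and close copies in that cluster may share probe signal. Of 15 oxidase and phagocyte enzyme genes Cat, the catalase gene, fell by 0.60 ± 0.13 (adjusted p 0.0102, but 0.0725 to 0.108 in the 3 fits that lost it) and the GTPase gene Rac2 by 0.42 ± 0.10 (adjusted p 0.0163, and 0.0947 to 0.119 with an array left out). After quantile normalisation again 6 of the 15 were called lower. Cat kept its call without wild-type array 1, at 0.0453.

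Chemokine and cytokine genes split, with 3 of 27 higher and 5 lower. Ccl9 and Ccl6, CC chemokines of mouse myeloid cells, were lower with wild-type FLT3: Ccl9 fell from 11.18 and 11.24 to 9.62 and 9.44, by 1.68 ± 0.31 (adjusted p 0.00303), and Ccl6 from 10.79 and 10.86 to 8.54 and 8.50, by 2.31 ± 0.52 (adjusted p 0.0105). Angpt1, the angiopoietin 1 gene, fell by 1.64 ± 0.28 (adjusted p 0.00179) from 9.38 and 9.42 to 8.01 and 7.50, and Ccl4 and Il1b, both inflammatory, fell by 1.33 ± 0.33 (adjusted p 0.0183) and 1.07 ± 0.31 (adjusted p 0.039). Tnf rose by 1.29 ± 0.32 (adjusted p 0.0185) from 8.12 and 8.19 to 9.46 and 9.43, beside Tnfsf9 and Ccn3. With an array left out Ccl6 (adjusted p 0.0698 to 0.0822), Ccl4 (0.0604 to 0.165), Il1b (0.0564 to 0.337) and Tnf (0.0947 to 0.121) were not called and Ccl9 was, and 2 members were called higher and 2 lower in every such fit. Beside Ccr1, 2 of 22 chemoattractant receptor genes were called, both lower: Gpr183, an oxysterol receptor gene, fell by 2.32 ± 0.55 (adjusted p 0.0142, and 0.0831 to 0.101 with an array left out), and Cxcr4, the CXCL12 receptor gene that holds cells in the marrow, fell by 1.02 ± 0.21 (adjusted p 0.0059) from 10.62 and 10.57 to 9.62 and 9.53. Cxcr4 lost its call without vector array 1 (0.0576) and without wild-type array 2 (0.0575).

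Lectin and paired receptor genes rose in 2 (Clec4e and Trem1) and fell in 4 of 30 cases. Clec4n, the Dectin-2 gene, measured 7.56 and 7.70 with the vector and 5.52 and 4.87 with wild-type FLT3, a fall of 2.44 ± 0.41 (adjusted p 0.00173). Parental cells (5.00 and 4.60) were as low as wild-type cells, so the vector arrays were the high ones. Cd300a, an inhibitory receptor gene, fell by 1.28 ± 0.18 (adjusted p 0.000619), with vector and parental arrays at like levels of 8.01 to 8.35, and Cd300lb and Treml4 fell by 0.99 and 0.79 (adjusted p 0.0317 and 0.0414, but up to 0.302 and 0.342 with an array left out). Integrins and other adhesion genes fell in 5 of 33 cases (8 after quantile normalisation again) and rose in 1. Itga6, an integrin chain for laminin, fell by 1.46 ± 0.17 (adjusted p 0.00017) from 9.42 and 9.48 to 8.06 and 7.91, with 35 of 37 used probe sets lower. Besides Cd9, the hyaluronan receptor gene Cd44 fell by 0.73 ± 0.19 (adjusted p 0.0217) and the tetraspanin gene Cd63 and Pecam1 fell by 0.37 and 0.36 (adjusted p 0.0125 and 0.0304), and the vitronectin receptor chain gene Itgav rose by 0.73 ± 0.17 (adjusted p 0.0125). The calls of Cd44 (adjusted p 0.076 to 0.17), Itgav (0.0572 to 0.119), Cd63 (0.0646 to 0.112) and Pecam1 (0.139 to 0.176) were lost with any array left out.

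Interferon response genes had the lowest median difference of the 37 lists, and the vector arrays were the ones that stood apart. Type I interferon induces antiviral genes, many of which carry the interferon-stimulated response element (ISRE) in their promoters. Of 24 measured members 15 fell and none rose, where 2.71% of all genes fell, and the list median was -1.12. Rtp4, a chaperone gene induced by interferon, was 9.90 and 9.71 on the vector arrays and 6.02 and 6.22 on the wild-type arrays, a 12.8-fold fall of -3.68 ± 0.51 (adjusted p 0.00044). Parental arrays (5.45 and 5.02), ligand arrays (5.97 and 6.49) and ITD arrays (4.98 to 7.18, median 5.80) all lay far below the vector arrays. Usp18, which restrains interferon receptor signalling, went from 9.50 and 9.38 to 6.47 and 6.16 (-3.13 ± 0.51, adjusted p 0.00147), against 6.74 and 6.77 in parental cells. Oas2 and Oasl2, of the oligoadenylate synthetase family, fell too, with differences of -2.65 ± 0.25 (adjusted p 2.66e-05) and -2.61 ± 0.19 (adjusted p 1.36e-06), and both were at 5.58 to 6.09 on the parental arrays against 8.56 to 9.06 on the vector arrays. Irf9, which encodes a factor that binds this element, was 9.00 and 9.06 with the vector and 7.48 and 7.31 with wild-type FLT3, a fall of 1.63 ± 0.17 (adjusted p 4.73e-05), and 7.39 on both parental arrays. Irf7, the factor that amplifies interferon production, fell by 1.51 ± 0.31 (adjusted p 0.00621), from 9.36 and 9.42 to 7.92 and 7.85, still above the parental 6.99 and 6.73; its call held only without vector array 1 (0.0489, otherwise up to 0.0583).

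Averaged over the 24 genes, the list stood at 8.30 and 8.26 on the vector arrays, 6.96 and 6.96 on the wild-type arrays, 6.84 and 6.72 on the parental arrays and 6.94 and 7.04 on the ligand arrays. The comparison of wild-type FLT3 with vector, and that of vector with parental cells, share the vector arrays, and their values are given side by side: Rtp4 -3.68 and 4.57, Oas2 -2.65 and 3.07, Oasl2 -2.61 and 2.95, Irf9 -1.63 and 1.64. Against parental cells, wild-type FLT3 cells differed by 0.88 for Rtp4 (adjusted p 0.3), 0.43 for Oas2 (adjusted p 0.329), 0.33 for Oasl2 (adjusted p 0.318) and -0.44 for Usp18 (adjusted p 0.667), none of them called. Further called members were Zbp1 (-1.90), Ifi44 (-1.55), Xaf1 (-1.24), Trim30a (-1.22), Ddx58 (-1.08), Ifih1 (-1.06), Oas1a (-0.99), Stat2 (-0.86) and Bst2 (-0.73). Ifit1 (-1.55 ± 0.57, adjusted p 0.115), Rsad2 (-0.96 ± 0.31, adjusted p 0.0704) and Mx1 (-0.76 ± 0.38, adjusted p 0.267) were lower but not called. With an array left out 12 or 13 members were called, 12 of them in every such fit, and Ddx58 (adjusted p 0.0884 to 0.143) and Ifih1 (0.152 to 0.218) in none. Outside the list, Oas3 fell by 2.44 ± 0.19 (adjusted p 2.11e-06), from 8.63 and 8.58 to 6.12 and 6.21, next to parental levels of 6.28 and 6.29.

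**Figure D3:**
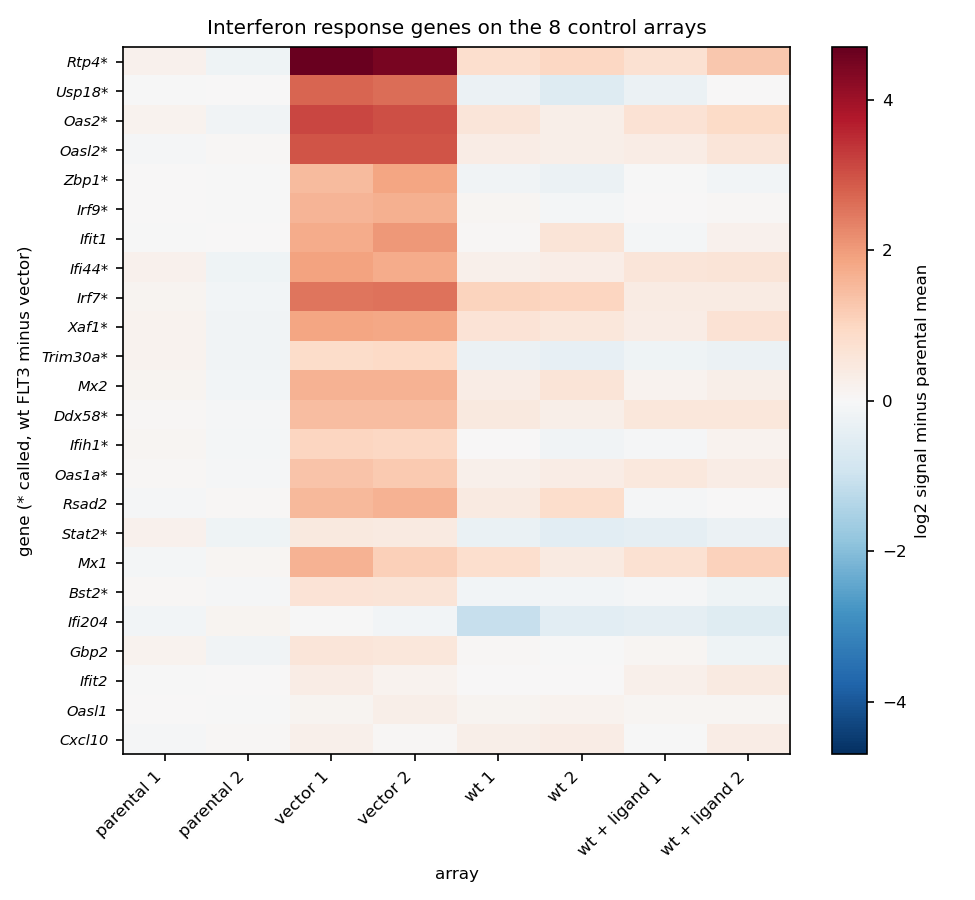
Log2 signal of the 24 measured interferon response genes on the 8 parental, vector, wild-type FLT3 and ligand arrays, each minus the gene's parental mean; red is higher, blue lower, and an asterisk marks the 15 genes called lower with wild-type FLT3 than with the vector. The 2 vector columns are red for most genes, up to 4.66 above the parental mean for Rtp4, and the wild-type and ligand columns are paler for most genes.

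The ISRE core was searched in the 250 bases before RefSeq gene starts (GRCm38.p6), as GAAA, any 2 bases and GAAA again, on both strands, because 15 genes of the list were called lower. It was present for 8 of the 17 interferon response genes with an entry in that table and for 3.06% of 15535 genes tested, or 2.58% of 19219 promoters. Of the 8 genes, Bst2, Oas1a, Stat2 and Trim30a were called and Cxcl10, Gbp2, Ifit1 and Rsad2 were not. The promoters of the called genes are printed 5′ to 3′ on the strand of the gene, ending at the base before its start, with matches in capitals. Trim30a lies on the minus strand at chr7:104465194-104465443, Oas1a on the minus strand at chr5:120907526-120907775, Stat2 on the plus strand at chr10:128270248-128270497 and Bst2 on the minus strand at chr8:71537473-71537722.
Trim30a: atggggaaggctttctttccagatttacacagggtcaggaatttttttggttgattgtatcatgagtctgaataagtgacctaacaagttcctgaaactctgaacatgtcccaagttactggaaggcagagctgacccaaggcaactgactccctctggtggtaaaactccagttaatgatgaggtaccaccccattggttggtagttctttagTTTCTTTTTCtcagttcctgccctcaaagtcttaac
Oas1a: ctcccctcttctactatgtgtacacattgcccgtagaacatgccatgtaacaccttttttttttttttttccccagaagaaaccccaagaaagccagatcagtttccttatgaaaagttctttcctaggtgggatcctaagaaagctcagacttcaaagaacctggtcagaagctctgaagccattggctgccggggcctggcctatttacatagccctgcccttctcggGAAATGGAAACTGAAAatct
Stat2: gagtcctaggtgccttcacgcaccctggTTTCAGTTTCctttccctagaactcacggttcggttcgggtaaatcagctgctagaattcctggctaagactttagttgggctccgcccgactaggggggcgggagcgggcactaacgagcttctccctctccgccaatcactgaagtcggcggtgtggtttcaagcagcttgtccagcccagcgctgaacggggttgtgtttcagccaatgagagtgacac
Bst2: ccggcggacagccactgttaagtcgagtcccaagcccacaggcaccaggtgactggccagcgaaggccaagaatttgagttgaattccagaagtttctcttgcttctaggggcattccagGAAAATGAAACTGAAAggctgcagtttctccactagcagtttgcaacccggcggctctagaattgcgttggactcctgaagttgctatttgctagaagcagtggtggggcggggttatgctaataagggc
In Oas1a and in Bst2 a pair of overlapping matches forms 1 capital run, and in Trim30a and Stat2 the match reads on the opposite strand.

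Neighbouring immune lists moved little. Of 13 MHC class I genes B2m, the light chain gene, was the single call, a fall of 0.69 ± 0.17 (adjusted p 0.0156, and 0.0822 to 0.119 with an array left out), and here too the vector arrays (12.64 and 12.56) were above the parental ones (12.20 and 12.09). H2-T24, a non-classical class I gene outside the list, was among the largest falls, from 9.99 and 9.96 to 6.66 and 6.34 (-3.48 ± 0.42, adjusted p 0.000171), and in its case parental cells were at 9.39 and 9.19. Among 10 MHC class II genes H2-DMb1, a peptide-loading chain gene with 2 probe sets, rose by 0.86 ± 0.17 (adjusted p 0.00614, but 0.11 without vector array 1 and 0.0747 without wild-type array 2). The other largest falls were Ldhc, a lactate dehydrogenase gene known from testis (7.41 and 7.39 to 3.48 and 4.11, -3.60 ± 0.58, adjusted p 0.00137), the helicase gene Ddx60 (7.41 and 7.61 to 4.27 and 4.49, -3.13 ± 0.53, adjusted p 0.00197), Mettl7a1 (9.88 on both vector arrays to 6.68 and 6.92, -3.08 ± 0.57, adjusted p 0.00329) and Tfec, a MiT family factor gene (7.91 and 7.69 to 5.08 and 4.92, -2.80 ± 0.64, adjusted p 0.0121). The wild-type values of Ldhc and Ddx60 lie near or below the 4.599 that a probe set's mean had to exceed, so the size of these falls rests on signals near background. Tfec lost its call whichever array was left out (adjusted p 0.0718 to 0.0925). On 12 of the 15 largest falls both wild-type arrays lay below both parental arrays as well, where 22.9% of all genes had them so. These 15 genes were picked for being low on the same wild-type arrays, so this count and the next are in part built in. Against parental cells 10 of the 15 were called lower, where 5.53% of all genes were, and the others were Rtp4, Oas2, Oasl2, Usp18 and Oas3 (-0.12, adjusted p 0.781).

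Genes that charge tRNAs and supply amino acids rose in 14 of 19 and 10 of 24 cases, and none fell. Cells short of amino acids, or under other stress, raise ATF4, which binds C/EBP-ATF response elements (CARE) and induces amino acid synthesis, transport and tRNA charging. Of 19 measured cytosolic aminoacyl-tRNA synthetase genes, whose products load amino acids onto tRNAs, 14 rose and none fell, where 5.5% of all genes rose, and the median was 0.65. Farsb, the beta chain of the phenylalanine enzyme, measured 10.04 and 10.20 on the vector arrays and 11.28 and 11.25 on the wild-type arrays, a rise of 1.14 ± 0.12 (adjusted p 4.73e-05) with all 21 probe sets higher. Parental cells (10.03 and 9.95) matched the vector line, and the ligand arrays (11.15 and 11.21) and ITD arrays (10.83 to 11.19, median 10.98) were nearly as high as the wild-type arrays. Lars rose by 1.03 ± 0.12 (adjusted p 0.000174) from 10.12 and 10.03 to 11.13 and 11.07, Rars by 0.94 ± 0.13 (adjusted p 0.000426) from 9.33 and 9.35 to 10.26 and 10.30, and Iars by 0.94 ± 0.17 (adjusted p 0.00239) from 9.62 and 9.59 to 10.61 and 10.47. Eprs (0.91), Cars (0.84), Nars (0.75), Yars (0.70), Gars (0.67), Sars (0.65), Tars (0.65), Wars (0.62), Hars (0.55) and Mars1 (0.50) rose less. The alpha chain gene Farsa, partner of Farsb, went the other way without a call (-0.43 ± 0.22, adjusted p 0.298), and Qars differed by -0.18 ± 0.23 (adjusted p 0.726). With an array left out 8 synthetase genes were called, the same 8 in every such fit, the calls of Eprs, Hars, Mars1, Sars, Tars and Wars were lost in all 4 (adjusted p 0.0552 to 0.211), and 11 were called after quantile normalisation again.

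**Figure D4:**
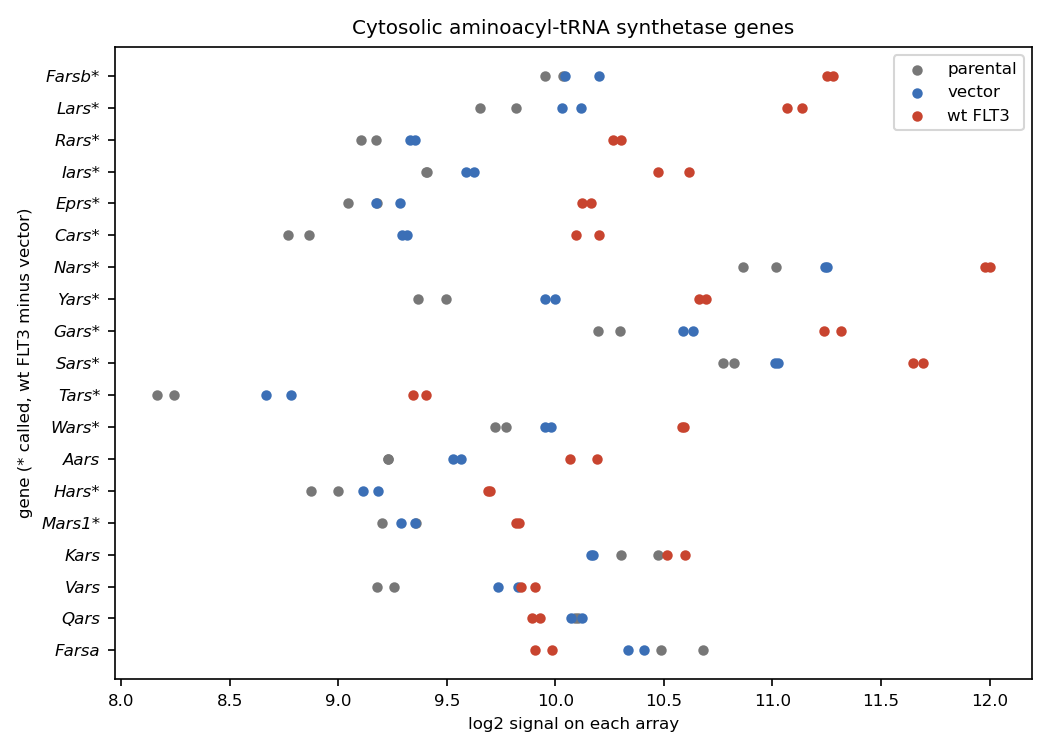
Log2 signal of the 19 measured cytosolic aminoacyl-tRNA synthetase genes on the parental, vector and wild-type FLT3 arrays, with 1 point per array; an asterisk marks the 14 genes called higher with wild-type FLT3. The red wild-type points lie right of both blue vector points for 17 of the genes, and left of them for Qars and Farsa.

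Of 24 amino acid response and one-carbon genes 10 rose and none fell, with a median of 0.49. Trib3, a pseudokinase gene that ATF4 induces, had the largest rise, from 9.63 and 9.59 to 11.07 and 11.10 (1.47 ± 0.38, adjusted p 0.0231), and Slc7a11, the cystine transporter gene, rose by 0.85 ± 0.20 (adjusted p 0.0138) from 8.41 on both vector arrays to 9.30 and 9.22. Both were lower in parental than in vector cells, at 8.84 and 8.78 for Trib3 and 7.93 and 7.56 for Slc7a11. Serine and folate genes had smaller standard errors than Trib3 and Slc7a11 in the fit, whose spread comes mostly from the 9 ITD arrays. Phgdh, the first enzyme of serine synthesis, rose by 0.67 ± 0.09 (limma adjusted p 0.000522) from 11.32 and 11.30 to 11.97 and 11.99. Psat1 rose by 0.54 ± 0.09 (adjusted p 0.00184) and Shmt2 by 0.63 ± 0.15 (adjusted p 0.0127). The folate enzyme genes Mthfd2 and Mthfd1 rose by 0.82 ± 0.16 (adjusted p 0.00376) and 0.76 ± 0.12 (adjusted p 0.00097). The asparagine synthetase gene Asns rose by 0.49 ± 0.13 (adjusted p 0.0248) from 11.18 and 11.24 to 11.70 on both wild-type arrays, and Aldh18a1 of proline synthesis by 0.56 (adjusted p 0.0368). Cth, of cysteine synthesis, rose by 1.13 ± 0.22 (adjusted p 0.00394) but stood at -0.121 under a stricter filter on dim probe sets. The stress factor genes Ddit3 (0.68 ± 0.47, adjusted p 0.458) and Atf5 (0.82 ± 0.30, adjusted p 0.112) were not called, and Chac1, an ATF4 target, differed by -0.28 ± 0.20 (adjusted p 0.465). With an array left out 5 of the 10 were called, and Trib3 (adjusted p 0.117 to 0.134), Slc7a11 (0.0686 to 0.114), Shmt2 (0.071 to 0.105), Asns (0.105 to 0.16) and Aldh18a1 (0.128 to 0.213) were not among them.

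The CARE core was searched as TGATGNAA on both strands in the same 250-base windows, and it was found for 3 of 12 synthetase genes and 5 of 20 amino acid genes with an entry, against 2.92% of genes and 2.48% of promoters. It was also found for 2 of 6 eosinophil genes, Il5ra and Rnase2a, neither of which was called, and for 1 of 19 mast cell and basophil genes, Srgn. The synthetase and amino acid genes were Aars, Gars and Tars, and Slc7a11, Asns, Chac1, Pycr1 and Vldlr, of which Gars, Tars, Slc7a11 and Asns were called. Their promoters are shown as above, because they belong to the called members of both lists: Slc7a11 on the minus strand at chr3:50443614-50443863, Gars on the plus strand at chr6:55037751-55038000, Tars on the minus strand at chr15:11399659-11399908 and Asns on the minus strand at chr6:7693210-7693459.
Slc7a11: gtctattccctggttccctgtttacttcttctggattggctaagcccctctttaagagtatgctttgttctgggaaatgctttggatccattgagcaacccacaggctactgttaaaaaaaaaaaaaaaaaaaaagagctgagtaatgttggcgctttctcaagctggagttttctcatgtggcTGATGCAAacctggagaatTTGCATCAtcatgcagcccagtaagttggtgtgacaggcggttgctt
Gars: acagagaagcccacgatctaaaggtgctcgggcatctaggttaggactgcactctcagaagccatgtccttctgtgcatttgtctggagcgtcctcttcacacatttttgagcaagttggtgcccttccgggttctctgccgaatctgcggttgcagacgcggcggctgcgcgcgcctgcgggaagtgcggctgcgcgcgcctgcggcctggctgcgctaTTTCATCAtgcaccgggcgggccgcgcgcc
Tars: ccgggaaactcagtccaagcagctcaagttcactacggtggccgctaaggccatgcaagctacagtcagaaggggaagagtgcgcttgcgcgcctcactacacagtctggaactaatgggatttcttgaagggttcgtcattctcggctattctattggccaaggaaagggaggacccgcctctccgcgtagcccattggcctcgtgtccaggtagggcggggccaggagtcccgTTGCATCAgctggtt
Asns: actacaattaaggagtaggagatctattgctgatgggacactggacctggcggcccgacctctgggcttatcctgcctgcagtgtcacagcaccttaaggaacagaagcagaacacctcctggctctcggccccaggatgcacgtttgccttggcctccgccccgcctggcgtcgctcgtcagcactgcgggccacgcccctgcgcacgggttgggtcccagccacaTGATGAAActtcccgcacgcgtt
Slc7a11 has 2 matches, of which the one farther from the start begins 66 bases before it. The single matches begin 30 bases before the start in Gars, 15 in Tars and 23 in Asns. Further motifs were searched on both strands. The GATA motif AGATAAG was present for 2.58% of genes and for 1 of 14 erythroid and megakaryocyte genes, Epor, and the ETS motif CCGGAAG for 11.2% of genes for none of 11 ERK feedback genes and for 4 of 12 synthetase genes (Farsa, Gars, Mars1 and Sars). A longer CARE form, TGATGCAAT, which overlaps the core, was found for 0.167% of genes, the PU.1 form of the ETS motif, ACAGGAAG, for 3.03%, the cAMP response motif, GTGACGT, for 5.09% and the serum response element of SRF for 0.0901%. In the ERK feedback list the cAMP response motif was in 2 of 11 windows (Dusp5 and Errfi1) and the serum response element in 1 (Dusp5). A match describes these letters, and no binding was measured.

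Of 23 ribosome biogenesis genes 7 rose (4 after quantile normalisation again) and none fell, all 23 differences were above 0 and the median was 0.45. Nop14, of the small subunit processome, went from 8.92 and 8.90 to 10.06 and 9.98, a rise of 1.11 ± 0.12 (adjusted p 5.82e-05), and was the only member called in every fit with an array left out. Fbl, the fibrillarin gene, rose by 1.01 ± 0.25 (adjusted p 0.0169, but up to 0.174 without vector array 2), Utp20 by 0.96 ± 0.19 (adjusted p 0.00429, but 0.0582 without wild-type array 1) and Nop58 by 0.78 ± 0.20 (adjusted p 0.0204, and 0.0604 to 0.188 with an array left out). Dkc1 (0.69 ± 0.16), Ddx21 (0.52 ± 0.13) and Pes1 (0.49) rose less and were not called with an array left out (adjusted p 0.0671 to 0.23). Myc, whose product drives many of these genes, was 11.91 and 11.83 with the vector and 11.81 and 11.70 with wild-type FLT3, a difference of -0.11 ± 0.14 (adjusted p 0.727).

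Of the cell cycle lists, mitosis genes had the highest median difference, 0.39 against 0.024 over all genes. Of 21 measured, 4 (19.0%) rose (2 after quantile normalisation again) and none fell, where 5.5% of all genes rose. The rises were those of Cdk1 by 0.60 ± 0.14 (limma adjusted p 0.0128), Cdc20 by 0.57 ± 0.16 (adjusted p 0.0361), Mad2l1 by 0.53 ± 0.14 (adjusted p 0.0219) and Bub1b by 0.53 ± 0.16 (adjusted p 0.0449). None was called with an array left out (adjusted p 0.0792 to 0.254), and the vector arrays were below the parental ones, for example 9.79 and 9.77 against 10.13 and 10.11 for Cdk1. Of 29 replication and G1/S genes 3 rose and 1 fell: Rfc4 by 0.98 ± 0.22 (adjusted p 0.00945), the replication factor gene Cdc45 by 0.83 ± 0.15 (adjusted p 0.00289) and Rfc3 by 0.76 ± 0.20 (adjusted p 0.0243), while the repressor gene E2f8 fell by 1.30 ± 0.33 (adjusted p 0.0208). Of these 4 the call of Cdc45 held with any array left out and those of the other 3 did not (adjusted p 0.0642 to 0.181). The list median of 0.08 turned to -0.05 after quantile normalisation again. Cdk6, a G1 kinase gene, was the single call among 15 G1 genes: it fell by 1.37 ± 0.22 (adjusted p 0.00113) from 11.28 on both vector arrays to 9.96 and 9.86, with all 28 probe sets lower, and ITD arrays ran from 10.75 to 11.63 (median 11.48). No apoptosis regulator was called by limma among 22, of which 3 had an unadjusted p under 0.05; Bcl2a1b differed most, by 0.69 ± 0.33 (adjusted p 0.231), and Bcl2 by 0.01 ± 0.25 (adjusted p 0.991).

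Few genes were called in the remaining lists. Of 20 cholesterol synthesis genes Cyp51 and Fdft1 rose by 0.79 ± 0.21 (adjusted p 0.0288) and 0.62 ± 0.18 (adjusted p 0.0401), both from vector levels below the parental ones (1 call in the list after quantile normalisation again), and neither was called with an array left out (adjusted p 0.0646 to 0.249). Of 23 glycolysis genes Pfkfb3 and Gpi1 fell by 0.58 ± 0.15 (adjusted p 0.0233, and 0.0956 to 0.159 with an array left out) and 0.44 ± 0.09 (adjusted p 0.00743, and up to 0.111 without vector array 1). In the prostaglandin and leukotriene list (19 genes) the receptor gene Ptger4 fell by 0.58 ± 0.14 (adjusted p 0.0146, and up to 0.169 without wild-type array 1) and the synthase gene Ptges3 rose by 0.43 ± 0.09 (adjusted p 0.00651, and up to 0.0705 without vector array 2), and 5 genes of that list were lower after quantile normalisation again. In the Wnt list (20 genes) the scaffold gene Axin1 rose by 0.68 ± 0.14 (adjusted p 0.0052, but 0.0583 without vector array 2 and 0.0793 without wild-type array 1), in the serpin list (14 genes) only Serpinb1a was called, and in the lymphoid and plasmacytoid list (18 genes) only Bst2. None of 14 fibroblast, endothelial and epithelial genes was called by limma, and Pdgfrb alone had an unadjusted p under 0.05 (0.63 ± 0.28, adjusted p 0.204).

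**Figure D5:**
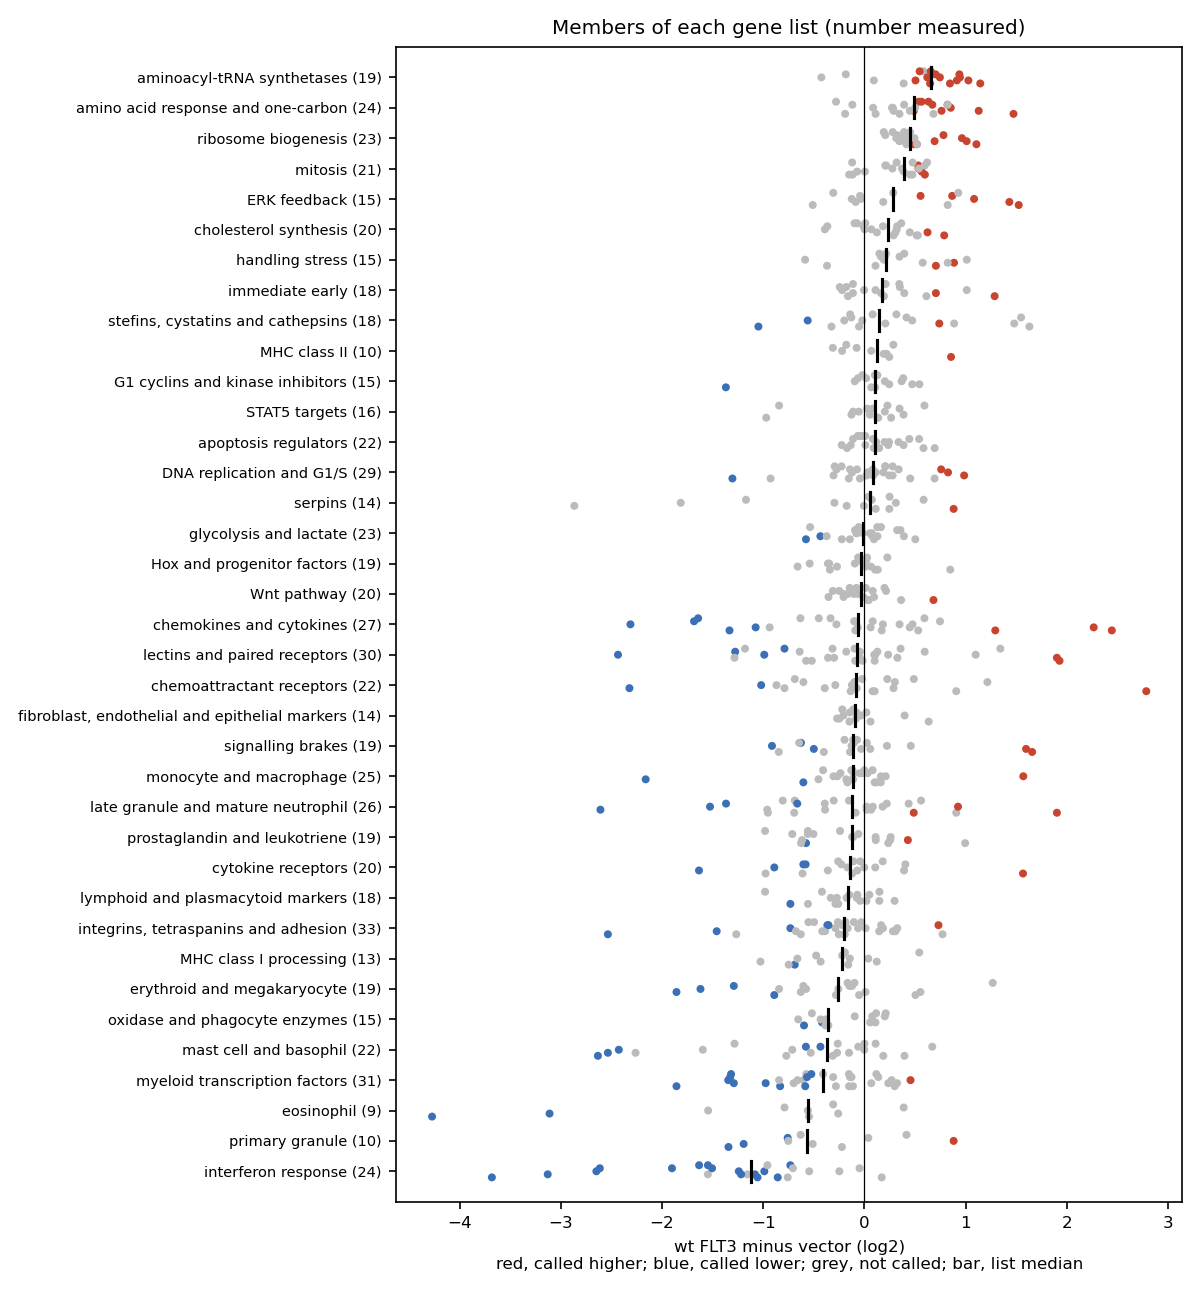
Difference between wild-type FLT3 and vector means (log2) for every measured member of the 37 gene lists, 1 point per gene; red and blue points are genes called higher and lower, grey points were not called, and black bars mark list medians. Synthetase and amino acid genes sit to the right (medians 0.65 and 0.49) and interferon genes to the left (median -1.12), while most other lists spread around 0.

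The same genes can be read against the other control lines. Wild-type FLT3 minus parental cells gave 2949 called genes (14.6%; 9.05% higher, 5.53% lower), and ligand-treated wild-type FLT3 minus vector gave 2148 (10.6%; 8.22% higher, 2.4% lower). The first shares the wild-type arrays and the second the vector arrays with the main comparison, so the 3 sets of calls are not independent. In the order wild-type minus vector, wild-type minus parental and ligand minus vector, Dusp6 differed by 1.43, 1.57 and 1.52, Farsb by 1.14, 1.27 and 1.06, Ccn3 by 2.44, 2.86 and 2.92, Cd9 by -2.54, -2.63 and -2.33, and Gata2 by -1.35, -1.79 and -0.80, and each of these values was called. Tnfsf9 differed by 2.26, 2.32 and 1.21, all called, so the ligand-treated value was the lowest. Clec4e (1.93, 2.00 and 1.14) and Prss57 (-1.34, -1.29 and -0.48) were called in the first 2 comparisons and not in the third (adjusted p 0.172 and 0.319). Other genes called against the vector were near the parental level. Wild-type minus parental was 0.10 for Rfc3 (limma adjusted p 0.816), -0.44 for Hp (0.561) and 0.14 for Dusp1 (0.793), none of them called. The difference between ligand-treated and untreated wild-type cells was not tested.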

How the data were processed

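RNA from 17 cultures was read on Affymetrix mouse exon arrays. The deposited values are log2 signals per probe set, made by the authors with RMA (background subtraction, normalisation between arrays and summary of probes) in Expression Console 1.1 of Affymetrix, as listed in the submitters' processing notes. Genome build and probe set annotation version are not given in the sources used here. RMA may compress differences of dim probe sets, and its normalisation can move the balance of rises and falls.

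Of 1256831 probe sets, 325444 had an annotation on the platform, and 237584 mapped to 1 symbol with a 17-array mean above 4.599, the median of all row means. They were averaged by symbol into 20227 genes, each from 9 probe sets at the median and 1987 from a single 1. Of 22296 symbols 18006 were current in RefSeq, 4227 were updated and 63 were kept; Ela2, an older name, was left out of the lists. Array medians were 4.63 to 4.69. Arrays have no read depth; their number sets the precision.

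Differences came from limma 3.58.1 in R 4.3.3 (lmFit, eBayes with trend) with 5 group means over all 17 arrays, 12 residual degrees of freedom and Benjamini-Hochberg adjustment over all genes, and a gene was called at an adjusted p under 0.05. Errors are standard errors of this fit. The spread therefore comes mostly from the 9 ITD arrays, and the code was tested on simulated data. Members and lists were chosen with earlier results of these data known. Named genes were Flt3, the 15 largest called rises and falls with no overlap between groups that are no predicted gene models, and up to 4 called genes per list (or the member with the largest difference); further members are given where a list is described. Alternatives were other filters, the median over probe sets, another quantile normalisation, fewer arrays, a replicate block, no trend and each array left out. Promoters are RefSeq's (GRCm38.p6), those of chromosome 18 left out.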

Additional observations from a re-analysis of the deposited data

How the results depend on the processing

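The count of calls changed most with the arrays that entered the fit. Against 1662 calls (1113 higher, 549 lower), fits on the 8 control arrays alone gave 4652 (3117 higher, 1535 lower), and fits on the 4 arrays alone gave 4883 (3299 higher, 1584 lower). Leaving out 1 array of the comparison gave 456 to 599 calls, 241 to 391 of them higher and 180 to 215 lower. For wild-type FLT3 minus parental (2949 calls) the 8 control arrays gave 5645 and fits without 1 array 1510 to 1871, and for ligand-treated minus vector (2148 calls) they gave 5330 and 420 to 781; leaving out parental and ligand arrays was chosen after seeing the data. A fit without 1 array keeps a single array in that group, which at a given spread enlarges the standard error whichever array is dropped. How much of these shifts comes from this, or from any other cause, was not tested. Other filters, the median over probe sets, a minimum of 3 probe sets, quantile normalisation again and no trend kept the 3 totals within 1.5 times, from 1276 to 1838 for the main comparison. The share of calls that were higher went from 62.1% to 51.0% for wild-type minus parental and from 77.4% to 56.8% for ligand minus vector after quantile normalisation again.

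With the replicate number as a block on the 8 control arrays, 4382 genes were called (2939 higher, 1443 lower), 5368 against parental and 5027 for ligand minus vector. Vector and wild-type arrays of the same number deviated from their group means with a correlation of 0.035, and the other pairs of groups gave -0.118 to 0.092. Arrays of the same number thus showed no marked shared deviation. Whether they were grown or processed together cannot be read from these values.

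Of 106 named genes that were called, 42 kept the call whichever of the 4 arrays was left out, 18 lost it in 1 to 3 of the fits and 46 in all 4. Under the other settings, the median over probe sets ended 15 calls, quantile normalisation again 9, no filter 8, no trend 7 and the stricter filter those of Klf1 and Cth. Cth was the single gene that changed direction, to -0.121 (adjusted p 0.753) under the stricter filter.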

Other observations

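Families of genes chosen after their values were seen showed further groups. Mitochondrial ribosomal protein genes were higher in 29 of 77 cases and lower in none, with a median difference of 0.43, where 5.5% of all genes were higher and 2.71% lower (8 in every fit with an array left out, and 18 after quantile normalisation again). Mrps31 measured 8.35 and 8.47 on the vector arrays and 10.00 and 10.04 on the wild-type arrays, a difference of 1.61 ± 0.33 (limma adjusted p 0.00693, but up to 0.0657 with an array left out). Cytosolic ribosomal protein genes were called in 5 of 65 cases, all higher (median 0.11), none was called with an array left out, and 1 was called after quantile normalisation again. Complex I subunit and assembly genes were higher in 19 of 46 cases (median 0.42; 1 in every fit with an array left out), proteasome subunit genes in 10 of 38 (median 0.31; 4), tRNA modification genes in 12 of 39 (median 0.32; 2) and nucleoporin genes in 6 of 20 (median 0.32; 3), and none of these was lower. After quantile normalisation again the counts were 12, 8, 9 and 6 in the same order. Among mitochondrial chaperones and proteases 5 of 10 were higher, with Lonp1 at 1.23 (adjusted p 0.00457, but 0.0583 and 0.0513 in 2 of the fits with an array left out) and the chaperonin gene Hspd1 at 0.77 (adjusted p 9.12e-05). Lysosomal hydrolase genes went the other way, with 6 of 25 lower and none higher (median -0.25; 5 in every fit with an array left out). Arsb, which encodes arylsulfatase B, measured 9.81 and 9.80 on the vector arrays and 7.99 and 7.84 on the wild-type arrays, a difference of -1.89 (adjusted p 0.00141). Toll-like receptor genes split, with Tlr7 (-1.77, adjusted p 0.0198, with the wild-type arrays far apart at 3.40 and 5.43), Tlr6 and Tlr1 lower and Tlr4 higher (0.77, adjusted p 0.0317), and none was called in every fit with an array left out.

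The Y-linked gene Eif2s3y, also picked after its values were seen, had a group mean of 10.68 in parental cells, stood at 7.39 and 7.67 on the vector arrays and at 4.11 and 4.04 on the wild-type arrays, and had means of 4.05 with ligand and 6.61 over the ITD arrays. Its difference of -3.45 ± 1.74 was not called (limma adjusted p 0.275). Kdm5d, also Y-linked, had a parental mean of 8.01 and measured 5.79 and 5.84 on the vector arrays and 4.89 and 4.90 on the wild-type arrays (-0.92 ± 0.62, adjusted p 0.448).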
